A study of Mus musculus with 20 samples.

Results

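Small leucine-rich proteoglycans are secreted matrix proteins, and 9 of them (Dcn, Bgn, Lum, Fmod, Ogn, Prelp, Aspn, Omd and Podn) were followed in dermal fibroblasts of mice that differed in age and diet. A gene was measured by the probe sets annotated to it alone, 13 in all for the 9 genes, and where a gene had 2 probe sets the one with the higher mean over the 20 arrays was used. All 9 were measured, among 17097 genes tested. The fibroblasts came from skin of female mice without its subdermis. They were sorted for Pdgfra and CD34 and against CD45, CD117, CD24, CD31 and EpCam, and RNA of 10000 cells per mouse was amplified over 20 cycles before hybridisation to an Affymetrix mouse array.

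Each of 4 groups held 5 arrays, and each array came from another mouse. Old CR-ND mice were on 30% caloric restriction (CR) for 7 months and then on the normal diet (ND) for 2 months. Old CR mice had the normal diet for 2 months first and 30% restriction for the 7 months after it. Old ND mice had the normal diet for 9 months. These 3 groups started the diets when 9 months old, and cells were taken at 18 months. Young ND mice began at 4 weeks and had the normal diet for 4 weeks, and their age at collection is not otherwise given. Young ND is thus far from the old groups in age and also in the length of the diet. All values are the authors' log2 array levels, differences are log2 differences ± the standard error from limma with n = 5 per group, and p-values are two-sided and adjusted by Benjamini-Hochberg across the 17097 genes (threshold 0.05). The level of a probe set depends on its own sequence, so genes are not ranked against each other.

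The protein cores of this family are built from leucine-rich repeats, curve around collagen fibrils and limit how the fibrils fuse laterally. Decorin (Dcn), biglycan (Bgn) and asporin (Aspn) form class I, in which decorin and biglycan carry chondroitin or dermatan sulfate chains and asporin carries a run of aspartate residues instead. Lumican (Lum), fibromodulin (Fmod), Prelp and osteomodulin (Omd) form class II, with keratan sulfate or tyrosine sulfate on several of them. Osteoglycin (Ogn) belongs to class III and podocan (Podn) to a later, non-canonical class. In skin, decorin and lumican are known for the regular width of collagen fibrils, and mice without either have fragile skin.

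Of the 9 genes, Podn was lower in Old ND and in Old CR-ND fibroblasts than in Young ND fibroblasts. Ogn was lower in Old CR than in Young ND fibroblasts. Over all genes, 10.9%, 7.04% and 12.7% passed in these comparisons, in the same order. Both Podn calls were lost when certain single arrays were left out, whereas the Ogn call held. The array numbers in the labels form a first and a second run, within which the Podn difference in Old ND was -0.98 and -0.185. None of the other differences of the 9 genes in the 6 comparisons of groups passed the threshold. The differences were small for Dcn and Lum, whose 95% intervals lay between -0.27 and 0.27 in all 6. Fmod, Prelp, Aspn and Omd varied far more between mice of the same group than most genes did, and they did so together. In Old ND against Young ND, the differences of the chain-building enzymes Papss2 (-1.13) and Chpf (-1.08) and the collagens Col5a2 (-1.06) and Col5a1 (-0.98) were farther from 0 than that of any of the 9 genes.

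**Figure D1:**
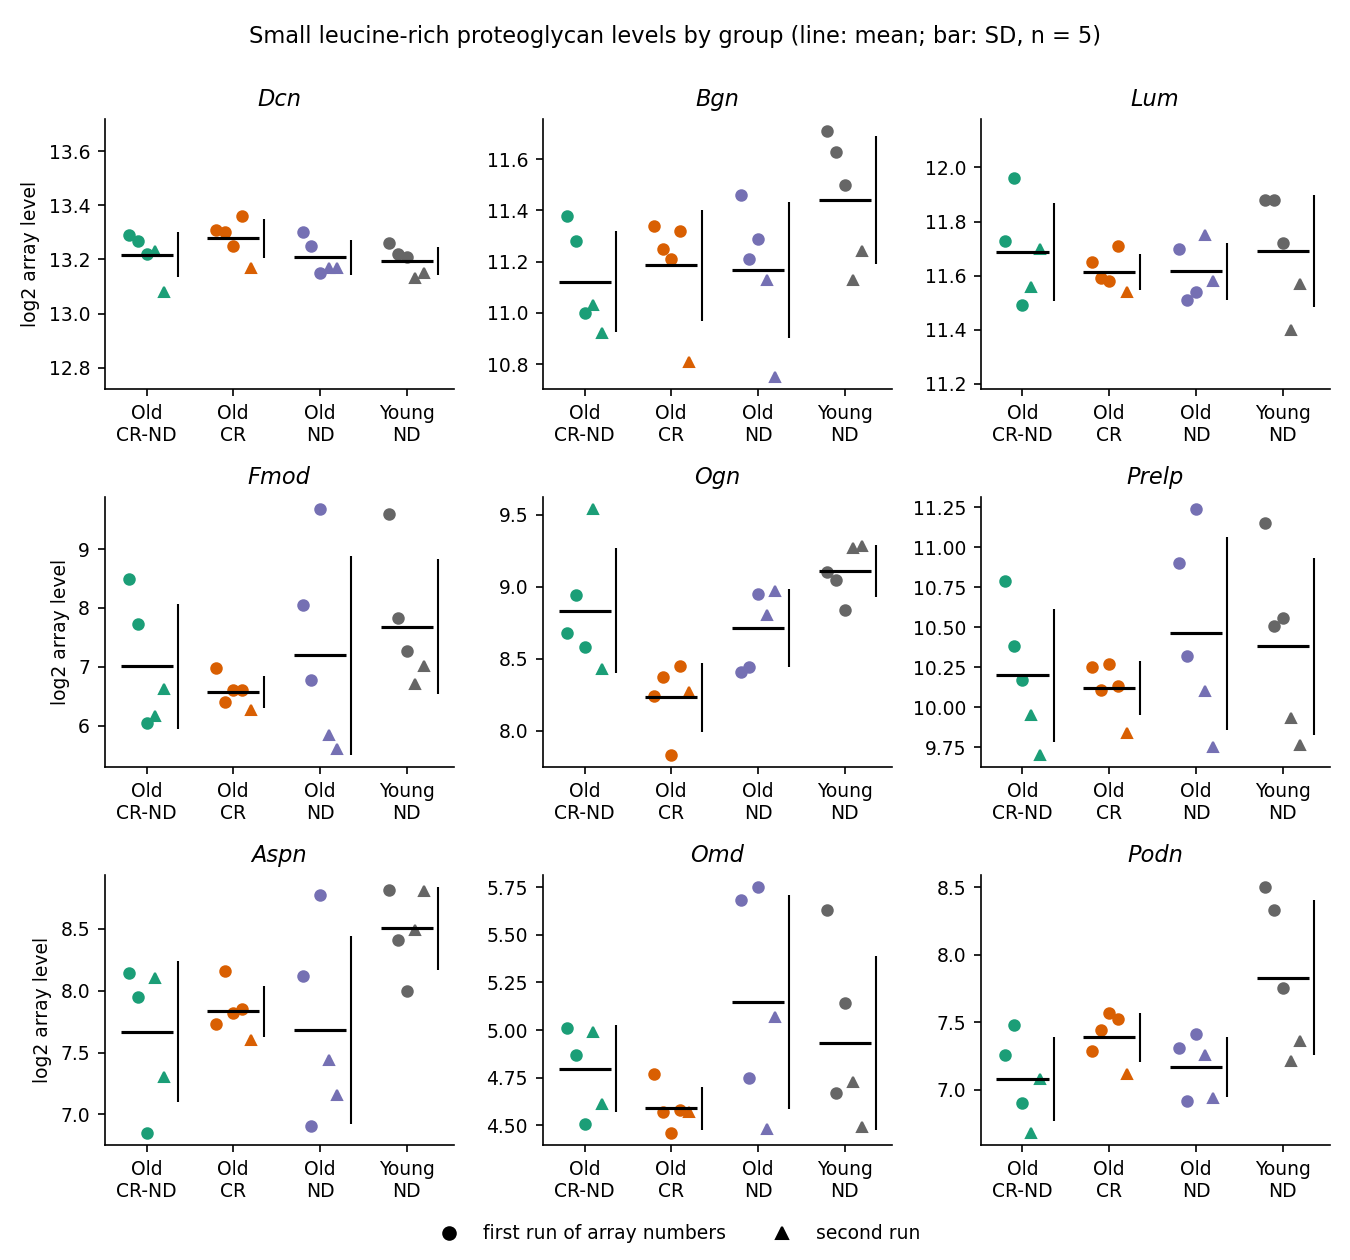
Log2 array level of each of the 9 genes (vertical axes, 1 scale per gene) in Old CR-ND, Old CR, Old ND and Young ND (horizontal axes). Each point is 1 array, circles are the first and triangles the second run of array numbers, lines are means and bars are ± SD (n = 5). Ogn in Old CR (7.83 to 8.45) lies below all Young ND arrays (8.84 to 9.28), while Fmod spreads from 5.60 to 9.68 within Old ND.

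The genes lie in clusters on the chromosomes (RefSeq table of the GRCm38.p6 assembly, order of protein-coding genes). Prelp and Fmod are neighbours on chromosome 1, next to Optc. Dcn and Lum are neighbours on chromosome 10, followed by Kera and Epyc. Aspn, Omd and Ogn follow one another on chromosome 13 beside Ecm2, whereas Podn lies alone on chromosome 4 and Bgn alone on chromosome X. Of 9 genes, 7 have a promoter in the RefSeq promoter table, which gives 250 bases before and 50 bases after the start of each gene. The 4 promoters below are shown because they belong to adjacent pairs that behaved differently in these arrays: Prelp and Fmod had levels that rose and fell together from mouse to mouse, whereas Omd and Ogn did so far less. Each is written 5′ to 3′ in the direction of its gene, from chr1:133921352-133921651 (Prelp, - strand), chr1:134037004-134037303 (Fmod, + strand), chr13:49582212-49582511 (Omd, + strand) and chr13:49607765-49608064 (Ogn, + strand), and the capitals mark matches on either strand to the TATA box (TATAAA), the GC box (GGGCGG), the CCAAT box (the letters of its name) and an E-box (CATCTG).

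Prelp: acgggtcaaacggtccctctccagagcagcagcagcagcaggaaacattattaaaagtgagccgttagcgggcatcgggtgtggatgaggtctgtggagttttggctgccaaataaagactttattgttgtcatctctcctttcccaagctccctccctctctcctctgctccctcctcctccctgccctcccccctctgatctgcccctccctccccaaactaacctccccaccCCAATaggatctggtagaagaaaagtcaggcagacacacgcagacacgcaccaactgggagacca

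Fmod: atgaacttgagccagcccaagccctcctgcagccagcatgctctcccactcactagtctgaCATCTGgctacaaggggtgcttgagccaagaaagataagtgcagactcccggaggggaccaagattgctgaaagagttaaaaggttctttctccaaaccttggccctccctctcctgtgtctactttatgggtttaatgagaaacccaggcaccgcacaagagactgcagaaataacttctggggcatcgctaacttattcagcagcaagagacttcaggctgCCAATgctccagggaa

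Omd: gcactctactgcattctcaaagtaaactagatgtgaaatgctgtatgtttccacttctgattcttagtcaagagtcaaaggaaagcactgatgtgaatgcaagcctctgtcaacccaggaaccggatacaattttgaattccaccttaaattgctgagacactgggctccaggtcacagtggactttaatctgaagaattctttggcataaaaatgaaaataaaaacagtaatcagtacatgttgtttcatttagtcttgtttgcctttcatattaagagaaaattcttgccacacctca

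Ogn: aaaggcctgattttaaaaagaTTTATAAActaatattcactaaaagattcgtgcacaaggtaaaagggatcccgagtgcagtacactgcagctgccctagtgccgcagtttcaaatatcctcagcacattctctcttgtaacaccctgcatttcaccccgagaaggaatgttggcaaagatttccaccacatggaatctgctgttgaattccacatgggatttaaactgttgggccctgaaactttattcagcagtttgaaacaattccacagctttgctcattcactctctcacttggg

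These letters are common. TATAAA occurred in 13.6% of the 32841 promoters of the table, GGGCGG in 35.7%, CCAAT in 37.4% and CATCTG in 17.2%. Prelp and Fmod each held CCAAT, starting at -15 in Prelp and at 35 in Fmod relative to the gene start, and Fmod also held CATCTG at -189. Ogn held TATAAA on both strands, at -229 and -227, where the letters overlap, and Omd held none of the 4. The matches are a description of the letters in these windows only.

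Levels of the sort markers other than CD24 were read. Cd34 lay between 10.79 and 11.44 and Pdgfra between 5.27 and 6.54 over the 20 arrays. Of the genes sorted against, Ptprc (CD45) lay between 3.13 and 3.42, Kit (CD117) between 3.28 and 3.49, Pecam1 (CD31) between 5.16 and 5.79 and Epcam between 4.73 and 5.49. The range of Pdgfra overlaps those of Pecam1 and Epcam. Because levels of different probe sets are not ranked against each other, these ranges do not measure how pure the sort was. The keratinocyte keratin Krt5 lay between 7.60 and 10.49, and no gene of the keratinocyte list passed the threshold in any comparison. Array medians lay between 5.27 and 5.34, and arrays correlated with one another at 0.970 to 0.995. The array numbers in the labels fall into 2 separate runs of 13 and 7 arrays. The first run holds 4 of the Old CR arrays and 3 of each other group, the second 1 and 2. Between the runs 17.2% of all genes differed with the groups held constant, among them Bgn (-0.37 in the second run, adjusted p = 6.12e-04), Prelp (-0.72, adjusted p = 5.73e-04), Fmod (-1.39, adjusted p = 0.0166) and Podn (-0.43, adjusted p = 0.0186). For these 4 genes, differences from Young ND are therefore also given within the runs or with run as a block.

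Old ND against Young ND compares age on the same diet. Podn alone passed the threshold among the 9 genes, and it was lower in Old ND, where 10.9% of all genes passed and 6.49% passed as lower. With an unadjusted p under 0.05 in limma, Podn, Aspn and Ogn were lower, beside 23% of all genes in either direction. The median difference of the 9 genes was -0.27, beside 0.00 over all genes. Because the arrays measure pooled RNA of sorted cells, fewer cells of a type and less RNA per cell cannot be told apart.

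Podocan is a matrix protein first described in the kidney glomerulus. Podn levels were 7.31, 6.92, 7.41, 7.26 and 6.94 in the 5 Old ND arrays, against 8.50, 8.33, 7.75, 7.21 and 7.36 in the 5 Young ND arrays. The 3 Young ND arrays of the first run lay above every Old ND array, and the 2 of the second run lay among them. The difference was -0.66 ± 0.20 (95% interval -1.09 to -0.23, 1.58-fold lower, limma adjusted p = 0.0405). Within the first run it was -0.98 (limma adjusted p = 0.00571) and within the second -0.18 (limma adjusted p = 0.699), and with run as a block it stayed -0.66 (limma adjusted p = 0.00716). The difference between these within-run values was 0.80 ± 0.30. Its limma p was 0.0155 unadjusted and 0.513 adjusted over all genes, of which 0.0117% passed in that test. The call was lost when Old ND array 1, 2, 4 or 5 or Young ND array 1, 2 or 3 was left out, with limma adjusted p between 0.0518 and 0.129.

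Podn was also lower in Old CR-ND than in Young ND fibroblasts. It was at 7.26, 7.48, 6.90, 6.68 and 7.08 in Old CR-ND, and only the 2 highest of these reached into the Young ND range. The difference was -0.75 ± 0.20 (95% interval -1.18 to -0.32, 1.68-fold lower, limma adjusted p = 0.0285), again the only one of the 9 past the threshold, where 7.04% of all genes passed and 3.82% passed as lower. With an unadjusted p under 0.05 in limma, Podn, Aspn and Bgn were lower, beside 19.2% of all genes in either direction. Within the runs it was -0.98 (limma adjusted p = 0.0106) and -0.41 (limma adjusted p = 0.282), and with run as a block the limma adjusted p was 0.00404. It was lost without Young ND array 1 or 2 or Old CR-ND array 3, 4 or 5, with limma adjusted p between 0.0513 and 0.0963. Old CR was between these groups, at 7.29, 7.44, 7.57, 7.52 and 7.12, with a difference from Young ND of -0.44 ± 0.20 (limma adjusted p = 0.186) that passed with run as a block (-0.53, limma adjusted p = 0.0320). The 3 comparisons with Young ND share its 5 arrays. Over all 4 groups, Podn had an adjusted p of 0.0536 in limma's F test.

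Ogn, also called mimecan, is a small class III proteoglycan of connective tissue and bone. In Old CR against Young ND it was the only one of the 9 past the threshold, where 12.7% of all genes passed and 5.56% passed as lower. With an unadjusted p under 0.05 in limma, Ogn, Aspn and Podn were lower, beside 24.5% of all genes in either direction. Ogn levels were 8.24, 8.37, 7.83, 8.45 and 8.27 in Old CR, against 9.10, 9.05, 8.84, 9.27 and 9.28 in Young ND. The groups did not overlap, which held for 10.4% of all genes in this comparison and for no other of the 9. The difference was -0.88 ± 0.17 (95% interval -1.24 to -0.52, 1.84-fold lower, limma adjusted p = 0.00157). Within the first run it was -0.77 (limma adjusted p = 0.00804), in the second run, with 1 Old CR array, -1.005 (limma adjusted p = 0.166), and with run as a block -0.83 (limma adjusted p = 0.0011). The second probe set of Ogn fell by 1.06 ± 0.21 on the log2 scale (limma adjusted p = 0.00221 over all probe sets). The call held when any single array was left out.

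The other Ogn differences did not pass. Ogn was at 8.68, 8.94, 8.58, 9.54 and 8.43 in Old CR-ND and at 8.41, 8.44, 8.95, 8.80 and 8.97 in Old ND. Only the lowest Old CR-ND array and the lowest 2 Old ND arrays lay at or below the highest Old CR array (8.45). Old CR differed from Old ND by -0.48 ± 0.17 (limma adjusted p = 0.166), and Old CR-ND differed from Old CR by 0.60 ± 0.17 (limma adjusted p = 0.152). With array weights the difference between Old CR-ND and Old CR was 0.66 and passed (limma adjusted p = 0.042). Old ND differed from Young ND by -0.39 ± 0.17 (limma adjusted p = 0.169) and Old CR-ND from Young ND by -0.27 ± 0.17 (limma adjusted p = 0.434). The means were 8.83 ± 0.44 in Old CR-ND, 8.23 ± 0.24 in Old CR, 8.71 ± 0.27 in Old ND and 9.11 ± 0.18 in Young ND (SD, n = 5 each). From low to high the order was Old CR, Old ND, Old CR-ND and Young ND, and no neighbours in it differed past the threshold. In limma's F test over all 4 groups Ogn had an adjusted p of 0.00881, and 12.9% of all genes had an adjusted p under 0.05.

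**Figure D2:**
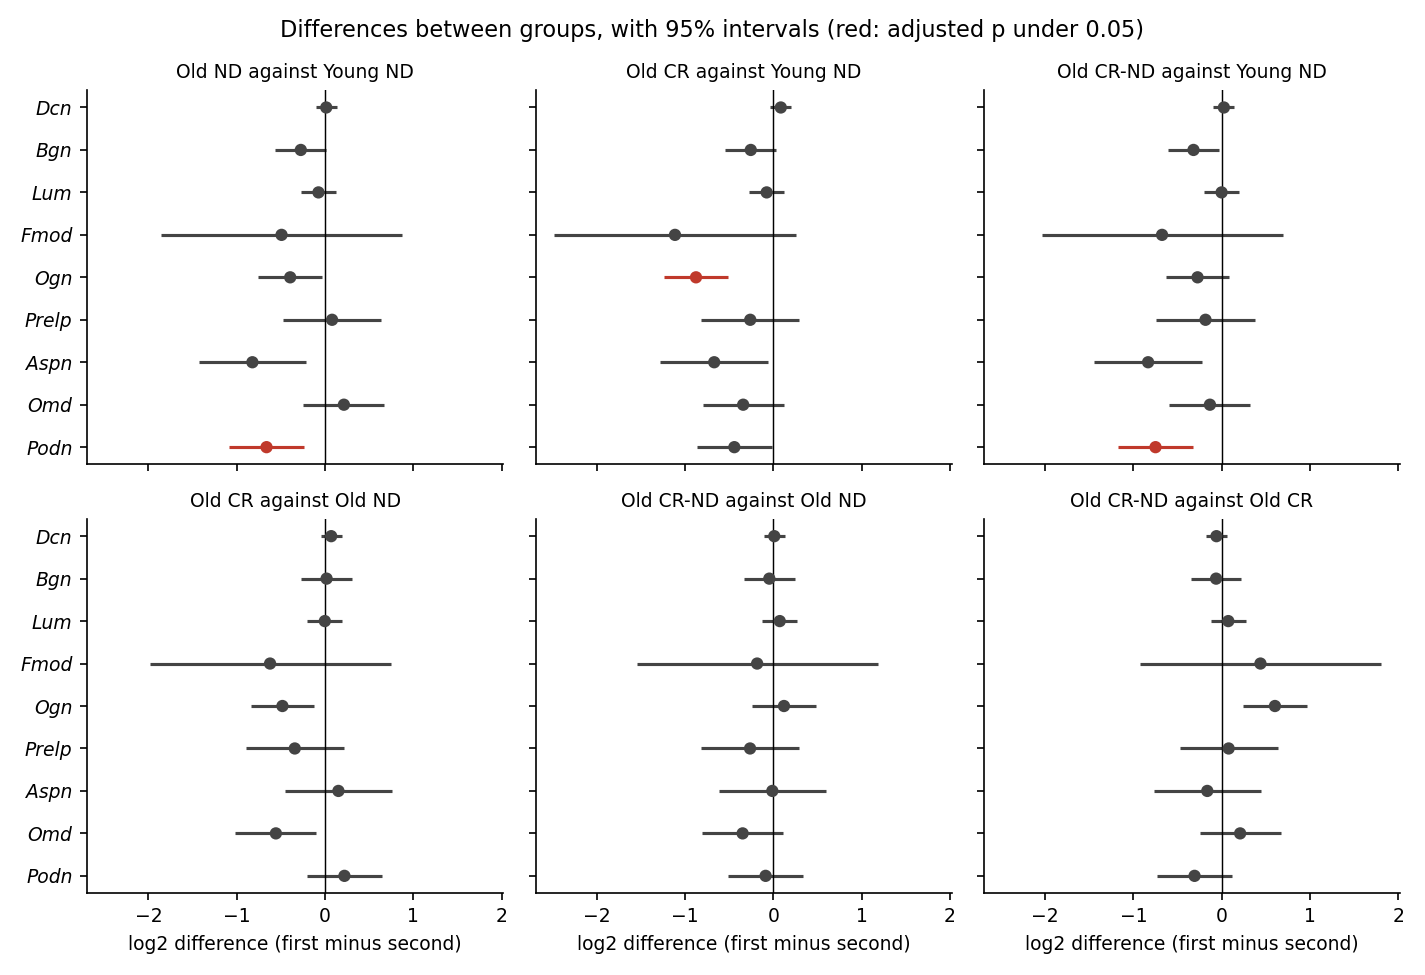
Log2 differences of the 9 genes in the 6 comparisons, first group minus second, with 95% intervals from limma (n = 5 arrays per group). Red marks adjusted p under 0.05: Podn at -0.66 and -0.75 and Ogn at -0.88. The intervals of Fmod are the widest and those of Dcn the narrowest.

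Between diets in old mice none of the 9 genes passed. In Old CR against Old ND 2.39% of all genes passed, and among the 9 only Ogn and Omd had an unadjusted p under 0.05 in limma (14.5% of all genes). In Old CR-ND against Old ND 0.00585% of all genes passed, and none of the 9 had an unadjusted p under 0.05 in limma (5.08% of all genes). In Old CR-ND against Old CR 0.333% of all genes passed, and among the 9 only Ogn had an unadjusted p under 0.05 (9.79% of all genes). The median differences of the 9 genes were 0.00, -0.05 and 0.07 in these 3 comparisons. The intervals set what could be missed: for Dcn in Old CR against Old ND it ran from -0.05 to 0.19, for Fmod from -1.99 to 0.74.

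In class I, decorin was the steadiest. Dcn binds collagen fibrils and the growth factor TGF-beta. It lay between 13.08 and 13.29 in Old CR-ND, 13.17 and 13.36 in Old CR, 13.15 and 13.30 in Old ND and 13.13 and 13.26 in Young ND, close to the highest value of the data, 13.46. Its residual SD of 0.07 stood at percentile 1.61 of all genes, and whether the array compresses differences so near the top of its scale was not tested. Old ND differed from Young ND by 0.01 ± 0.06 (95% interval -0.10 to 0.13). When the arrays were quantile normalised once more, Dcn differed from Young ND by 0.25 in Old ND, 0.25 in Old CR and 0.29 in Old CR-ND and passed in all 3. Counted from the highest gene down, Dcn had rank 1 or 2 on each old array and rank 2 or 3 on each Young ND array, and that step gives all arrays the same value at each rank.

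Biglycan, decorin's closest relative, was lower in the old groups without passing the threshold. Bgn lay between 10.92 and 11.38 in Old CR-ND (median 11.03), 10.81 and 11.34 in Old CR (median 11.25), 10.75 and 11.46 in Old ND (median 11.21) and 11.13 and 11.71 in Young ND (median 11.50). The ranges of all groups overlapped. The differences from Young ND were -0.32 ± 0.14 in Old CR-ND (limma adjusted p = 0.196), -0.26 ± 0.14 in Old CR (limma adjusted p = 0.269) and -0.27 ± 0.14 in Old ND (limma adjusted p = 0.243). With run as a block all 3 passed, at -0.32 (limma adjusted p = 0.0172), -0.33 (limma adjusted p = 0.00998) and -0.27 (limma adjusted p = 0.0309). Within the first run they were -0.39, -0.33 and -0.29, of which the second, Old CR, passed (limma adjusted p = 0.0495), and within the second run -0.21, -0.375 and -0.245, none past the threshold. The second probe set of Bgn differed by -0.27, -0.23 and -0.20 in the same order and did not pass over all probe sets.

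Asporin, which binds collagen and TGF-beta, had a larger mean difference between Old ND and Young ND than Podn, with a larger error. Aspn was at 8.12, 6.91, 8.77, 7.44 and 7.16 in Old ND, against 8.81, 8.41, 8.00, 8.49 and 8.80 in Young ND. A single Old ND array reached the upper Young ND values, and 3 of the 5 lay below all of them. The difference was -0.82 ± 0.29 (limma adjusted p = 0.0788). It passed when Old ND array 3, the highest, was left out (-1.09, limma adjusted p = 0.00828). Within the first run it was -0.47 (limma adjusted p = 0.568) and within the second -1.34 (limma adjusted p = 0.00664), with no called difference between runs (-0.87 ± 0.60, adjusted p = 0.84). Old CR-ND differed from Young ND by -0.83 ± 0.29 (limma adjusted p = 0.0976) and Old CR by -0.67 ± 0.29 (limma adjusted p = 0.154). The second, dim Aspn probe set gave -0.80, -0.79 and -0.69 for Old CR-ND, Old CR and Old ND against Young ND, none past the threshold.

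In class II, lumican was as steady as the median gene. Lum lay between 11.49 and 11.96 in Old CR-ND, 11.54 and 11.71 in Old CR, 11.51 and 11.75 in Old ND and 11.40 and 11.88 in Young ND, so that the group ranges overlapped. Old ND differed from Young ND by -0.07 ± 0.09 (95% interval -0.27 to 0.12).

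Fibromodulin binds collagen and is abundant in tendon and cartilage. Fmod levels were 8.49, 7.72, 6.04, 6.16 and 6.62 in Old CR-ND, 6.98, 6.40, 6.60, 6.60 and 6.26 in Old CR, 8.05, 6.78, 9.68, 5.84 and 5.60 in Old ND and 9.60, 7.83, 7.26, 6.71 and 7.01 in Young ND. The spread within Old ND covered the whole range of the gene, whereas the 5 Old CR arrays lay close together. Old ND differed from Young ND by -0.49 ± 0.65 (limma adjusted p = 0.735) and Old CR from Young ND by -1.11 ± 0.65 (limma adjusted p = 0.322). Within the first run the difference between Old ND and Young ND was -0.06 (limma adjusted p = 0.979) and within the second run -1.14 (limma adjusted p = 0.00384), without a called difference between runs (-1.08 ± 1.03, adjusted p = 0.909). Old CR differed from Young ND by -1.585 in the arrays of the first run, by -0.60 in those of the second, and by -1.39 with run as a block (limma adjusted p = 0.0769). Old CR-ND differed from Young ND by -0.81 and -0.47 in the same 2 sets of arrays, and by -0.68 with run as a block (limma adjusted p = 0.499).

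Prelp, a class II protein that anchors basement membranes to connective tissue, lay between 9.70 and 10.79 in Old CR-ND, 9.84 and 10.27 in Old CR, 9.75 and 11.24 in Old ND and 9.76 and 11.15 in Young ND. Its differences from Young ND were -0.18 ± 0.27, -0.26 ± 0.27 and 0.08 ± 0.27 in Old CR-ND, Old CR and Old ND. In the same order, first-run arrays alone gave -0.29, -0.55 and 0.08, second-run arrays alone gave -0.02, -0.005 and 0.08, and the fit with run as a block gave -0.18, -0.41 and 0.08, none past the threshold. Omd, a keratan sulfate proteoglycan of mineralised tissue, was at 4.51 to 5.01 in Old CR-ND, 4.46 to 4.77 in Old CR, 4.48 to 5.75 in Old ND and 4.49 to 5.63 in Young ND. Whether Omd lies above background cannot be read from these values. Old CR differed from Old ND by -0.56 ± 0.22 (limma adjusted p = 0.222), and 3 of the 5 Old ND arrays lay above all Old CR arrays.

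The spread between mice was wide for several of the 9 genes, though not for Dcn or Lum. The residual SD around the group means was 1.16 for Fmod, 0.51 for Aspn, 0.47 for Prelp, 0.38 for Omd, 0.36 for Podn, 0.30 for Ogn and 0.23 for Bgn, against a median of 0.15 over all genes. Fmod stood at the 99.98th percentile of all genes, Aspn at the 99.0th, Prelp at the 98.5th and Omd at the 96.9th. Run was not removed from these SDs, and Fmod (-1.39), Prelp (-0.72), Podn (-0.43) and Bgn (-0.37) were lower in the second run. Old CR had the smallest SD of the 4 groups for 6 of the 9 genes (Lum, Fmod, Prelp, Aspn, Omd and Podn), whereas it had the smallest SD for 31.8% of all genes. Fmod had an SD of 1.06 in Old CR-ND, 0.27 in Old CR, 1.69 in Old ND and 1.15 in Young ND. Old CR is also the group with a single array in the second run, and the part of that in its spread was not tested.

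Over the 20 arrays, with group means and run removed, 33 of the 36 pairs of genes correlated above 0, and 12 above 0.5, with a median Pearson's r of 0.31. Positive values are common in these arrays: the median r of each of the 9 genes with all genes above the median level (8237, or 8238 for Omd) lay between 0.05 and 0.18, and the r that 5% of those genes exceeded lay between 0.49 and 0.67. Fmod and Prelp had r = 0.87 (0.77 without the 2 arrays farthest from the median). With group means alone removed they had r = 0.90 and Spearman's rho = 0.86. Fmod also went with Aspn (r = 0.78) and Omd (r = 0.71), and Prelp with Omd (r = 0.76). For Fmod itself that 5% limit was 0.60. Lum and Podn, on different chromosomes, had r = 0.83, while Dcn and Lum, neighbours on chromosome 10, had r = 0.28. Omd and Ogn had r = 0.33 and Ogn and Podn r = 0.00. Aspn, in the same cluster on chromosome 13 as Omd and Ogn, had r = 0.60 with Omd and 0.53 with Ogn. All pairs come from the same 20 arrays, so a sample that differs in its cells or RNA moves all genes of a pair.

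**Figure D3:**
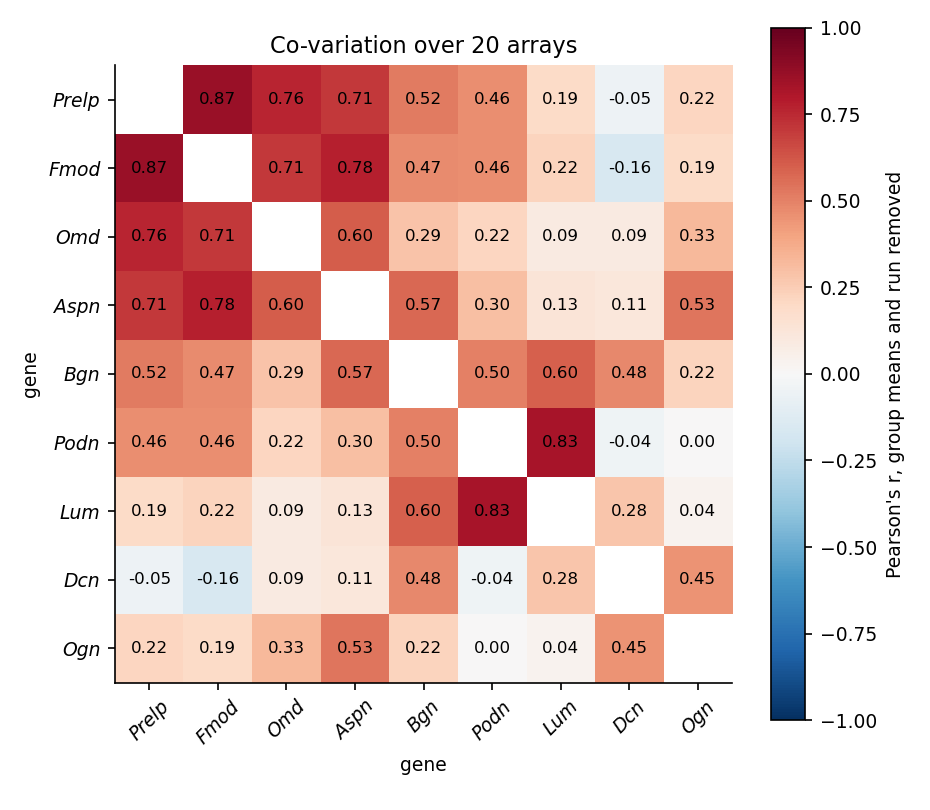
Pearson's r between each pair of the 9 genes over 20 arrays after removal of group means and run (colour, -1 to 1). Prelp, Fmod, Omd and Aspn form a block with r from 0.60 to 0.87, and Podn and Lum share r = 0.83.

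The 4 arrays with the highest Fmod were Old ND 3, Young ND 1, Old CR-ND 1 and Old ND 1, all of the first run, and the same 4 had the highest Prelp. Of 5 other listed markers of tendon and fascia fibroblasts, Tnmd and Kera went with Fmod and Scx, Mkx and Thbs4 did so less. Tnmd, a tendon membrane protein, had r = 0.89 with Fmod over the 20 arrays (group means and run removed), and Kera, a class II proteoglycan known from cornea and tendon, r = 0.77. The tendon transcription factor genes Scx and Mkx had r = 0.25 and 0.01 and the matrix gene Thbs4 r = 0.26. With group means alone removed, r with Fmod was 0.90 for Tnmd, 0.76 for Kera, 0.53 for Scx, 0.27 for Mkx and -0.23 for Thbs4. The summed level of the 5 listed tendon genes other than Fmod ran from 8.88 to 10.64 in Old CR-ND, 8.88 to 9.18 in Old CR, 9.40 to 11.21 in Old ND and 10.22 to 11.14 in Young ND, and had r = 0.84 with Fmod with group means removed. Run was not removed from that r. Levels were summed on the linear scale, so Tnmd (group means 7.42 to 9.97) and Thbs4 (7.85 to 8.35) weigh most. The r of the sum is therefore not separate from that of Tnmd. Of the list's 6 genes, Tnmd was lower in Old CR than in Old ND (-1.95, limma adjusted p = 0.0373) and than in Young ND (-2.55), and Kera was lower in Old CR than in Young ND, while Mkx was higher in all 3 old groups than in Young ND. Kera, Mkx and Scx lie below the median gene level. Such values were not limited to tendon markers. The collagen gene Col1a1, of the dermal fibroblast list, had r = 0.63 with Fmod (group means and run removed), beside Fmod's 5% limit of 0.60. With group means removed, the summed macrophage list had r = 0.57 with Fmod, the dermal fibroblast list r = 0.475 and the endothelial list r = -0.61. The part of such cells in the levels of Fmod, Prelp, Aspn and Omd was not tested.

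**Figure D4:**
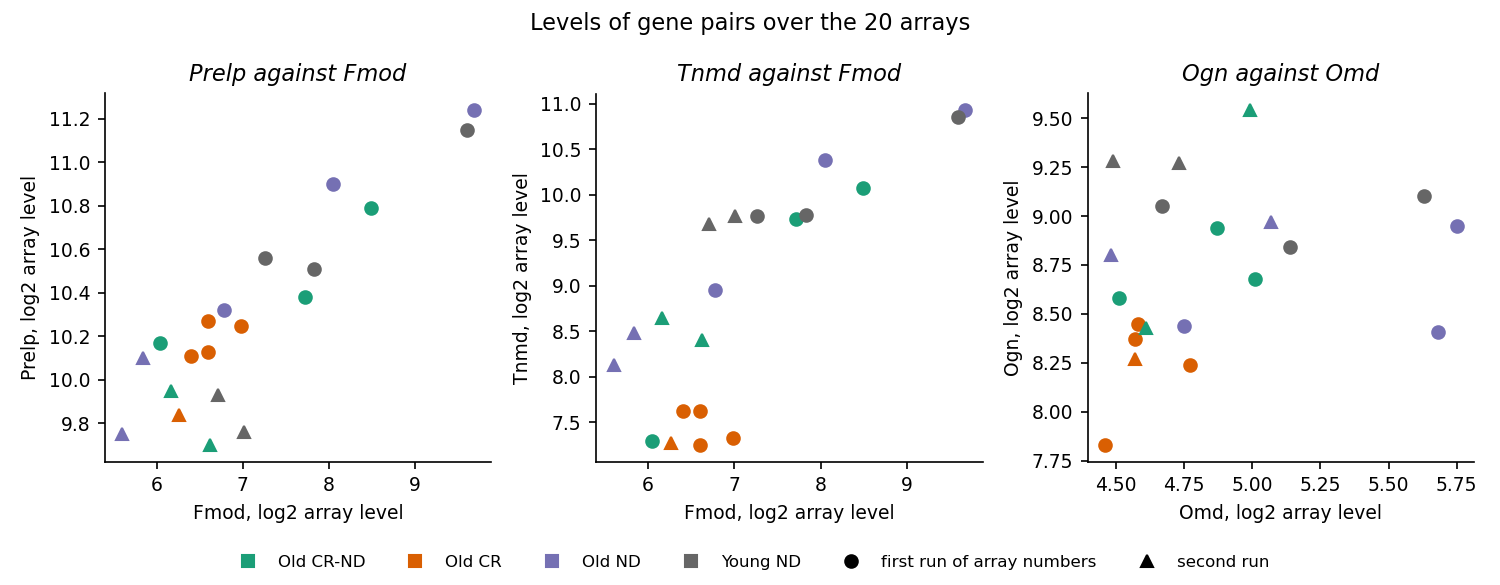
Log2 array levels over the 20 arrays, Prelp against Fmod, Tnmd against Fmod and Ogn against Omd. Colours are groups, circles the first and triangles the second run. Prelp and Tnmd climb with Fmod, all 5 Old CR arrays have Tnmd between 7.25 and 7.63, and Ogn shows no such line with Omd.

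For the 2 genes that passed, the 3 genes with the most similar pattern over the 20 arrays were taken by Pearson's r among genes above the median level. For Podn they were Ptar1 (r = 0.92), Idh2 (r = 0.91) and Naglu (r = 0.89). For Ogn they were Tor1b (r = 0.82), Ubn2 (r = 0.81) and Ube2h (r = 0.79). With group means and run removed, the r of the Podn set was 0.77 to 0.88 and that of the Ogn set 0.46 to 0.51.

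The chondroitin and dermatan sulfate chains of decorin and biglycan start from a linker on a serine. Sulfation needs activated sulfate, which Papss1 and Papss2 make. The counts of this and the following lists stand beside the shares of all genes that passed. These were 10.9% in Old ND, 12.7% in Old CR and 7.04% in Old CR-ND, each against Young ND. In Old CR against Old ND the share was 2.39%. In Old ND against Young ND, 5 of the 9 measured linker and sulfate donor genes passed, 4 lower and 1 higher. Papss2 lay between 7.54 and 7.98 in Old ND, against 8.82 to 9.28 in Young ND, and differed by -1.13 ± 0.10 (limma adjusted p = 3.04e-07). Papss1 differed by -0.48 and the linker enzymes B3galt6 and B3gat3 by -0.44 and -0.28, while Slc35b2, which carries activated sulfate into the Golgi, differed by 0.73 ± 0.22 (limma adjusted p = 0.032). Papss2 was also lower in Old CR (7.71 to 8.15, -0.95) and Old CR-ND (7.84 to 8.21, -0.88) than in Young ND. The linker list had 3 genes lower in Old CR and 2 in Old CR-ND than in Young ND, none higher.

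Of 15 measured chondroitin and dermatan sulfate enzymes, 4 were lower and none higher in Old ND than in Young ND. Chpf, a chain polymerase, lay between 8.09 and 8.57 in Old ND, against 8.90 to 9.90 in Young ND, and differed by -1.08 ± 0.18 (limma adjusted p = 2.96e-04). The sulfotransferase genes Chst12 and Chst11 differed by -0.73 and -0.86, and Chpf2 by -0.37. This count fell to 2 without Young ND array 5. The other 11 genes did not pass, and the median of the list was 0.07. In Old CR 2 of the 15 (Chpf and Chst11) and in Old CR-ND 2 (Chpf and Chst12) were lower than in Young ND, the second count being 1 without Young ND array 2 or Old CR-ND array 5. Of 10 measured keratan sulfate and tyrosine sulfation genes, Tpst2, a protein tyrosine sulfotransferase, was lower in each old group than in Young ND, by -0.49, -0.44 and -0.50 in Old CR-ND, Old CR and Old ND, and no other passed. A count of 1 in 10 is near the shares of all genes, 7.04%, 12.7% and 10.9% in the same order. Without Old ND array 1 a second gene of this list passed in Old ND against Young ND.

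Among 11 collagens that these proteins bind, 4 were lower and none higher in Old ND against Young ND. Col5a2 differed by -1.06 ± 0.10 (limma adjusted p = 4.85e-07), Col5a1 by -0.98 ± 0.12, Col1a1 by -0.48 ± 0.08 and Col3a1 by -0.27 ± 0.07. In Old CR 8 of the 11 were lower than in Young ND, among them Col5a2 (-1.18), Col5a1 (-1.03), Col1a1 (-0.50) and Col14a1 (-2.36), and in Old CR-ND 4 were lower. Col6a3 was the one collagen of this list that differed between Old CR (8.38 to 8.97) and Old ND (9.15 to 10.76), by -1.12 ± 0.25 (limma adjusted p = 0.0212). None of the list passed in that comparison without Old ND array 1, Old ND array 3 or Old CR array 4, and 3 passed without Old ND array 5. The summed markers of dermal fibroblasts and the sort ran from 14.38 to 14.60 in Old CR-ND, 14.39 to 14.50 in Old CR and 14.36 to 14.50 in Old ND, against 14.68 to 14.75 in Young ND, and that list holds collagen genes itself.

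Proteases that trim or cleave the cores were followed as well, in a list that also holds the procollagen trimming enhancers Pcolce and Pcolce2. Of 13 genes, 3 were lower in Old ND than Young ND: Pcolce, an enhancer of procollagen trimming, by -0.87 ± 0.11 (limma adjusted p = 1.18e-05), Bmp1, which removes the propeptide of biglycan, by -0.54 ± 0.11, and the gelatinase Mmp2 by -0.30 ± 0.09. Without Old ND array 3, 5 genes of the list passed. In Old CR against Young ND 4 were lower, with Pcolce at -0.79 and Mmp3, a stromelysin, at -1.06, and Adamts5, an aggrecanase, was higher at 0.65 ± 0.14 (limma adjusted p = 0.00404). In Old CR-ND against Young ND 3 were lower and 2 higher, Adamts5 (0.49) and Tll1 (0.92), of which Tll1 lies below the median gene level. Without Young ND array 1, Young ND array 2 or Old CR-ND array 3 that count of 5 was 2, and without Old CR-ND array 4 it was 3.

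Of 20 measured receptors and ligands of the family, P2rx7, an ATP-gated channel that biglycan engages, was higher in Old CR-ND, Old CR and Old ND than in Young ND (0.57, 0.62 and 0.62). It was the only one of the 20 past the threshold in Old ND against Young ND, a smaller share than the 10.9% of all genes. In that comparison 2 of the list passed without Young ND array 1 or 3 or Old ND array 4 or 5. Tlr2, a receptor of free biglycan, was lower in Old CR-ND and Old CR than in Young ND (-0.67 and -0.77), and 1 of the 2 calls of this list in Old CR-ND was lost without Young ND array 1 or 2 or Old CR-ND array 1 or 3. Egfr, to which decorin binds, exceeded its Old ND level in Old CR by 0.60 ± 0.14 (limma adjusted p = 0.0296) and its Young ND level by 0.47 ± 0.14, and the first of these was lost without any of Old CR arrays 1 to 4 or Old ND arrays 2 and 5. Met, another decorin receptor, was higher in Old CR than in Young ND (0.66 ± 0.13). Of 6 measured other proteoglycans of the family, Kera was lower in Old CR than in Young ND (-1.15 ± 0.27, limma adjusted p = 0.00621). Nyx was lower in Old CR than in Old ND (-0.30 ± 0.07, limma adjusted p = 0.0302). Kera and Nyx are dim genes, below the median gene level, and P2rx7 and Met also lie below it. The Nyx call was lost without any of the Old CR arrays or Old ND arrays 1 to 3. In Old CR-ND against Old ND and in Old CR-ND against Old CR no gene of these 7 lists passed.

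**Figure D5:**
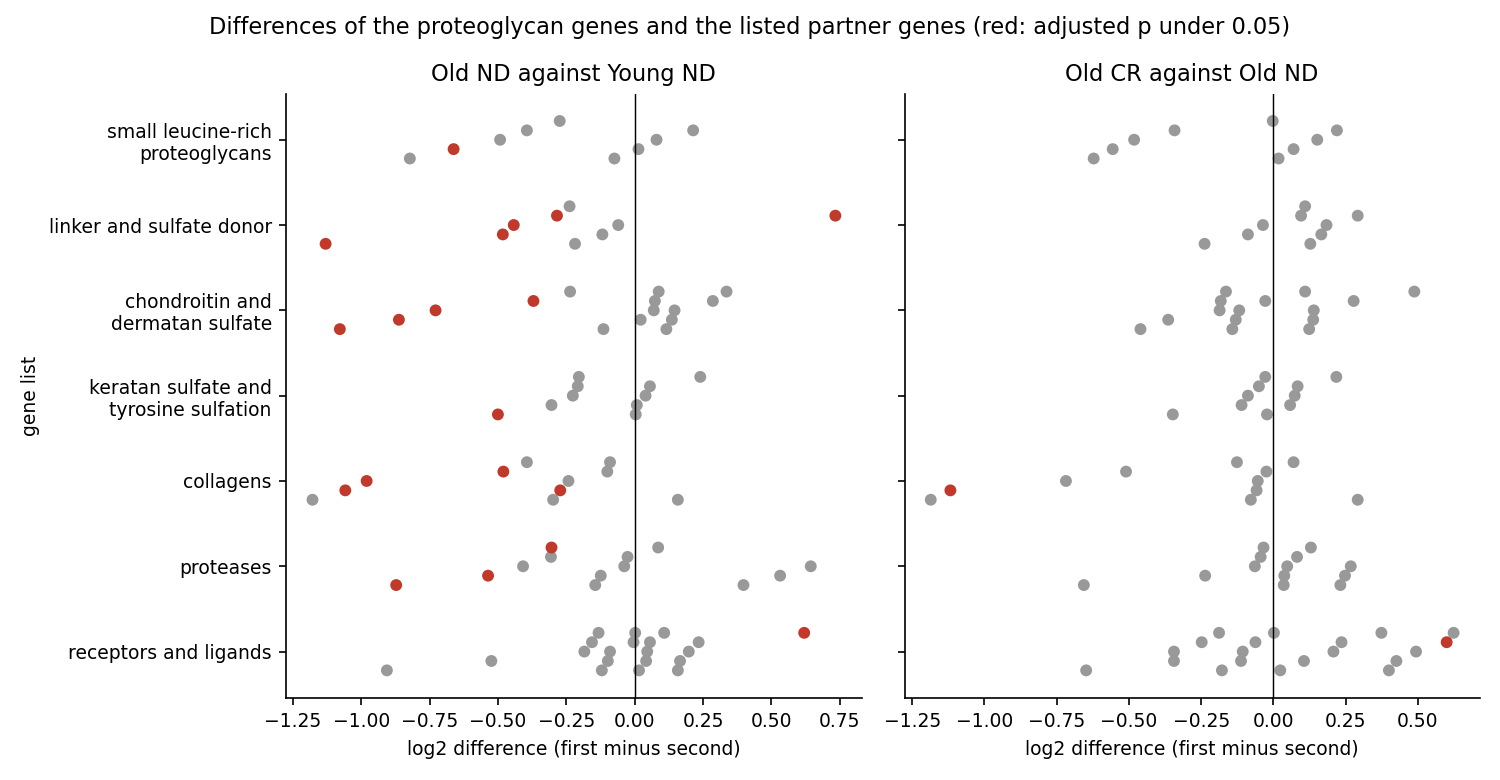
Log2 differences (first group minus second) of the 9 proteoglycan genes and the genes of 6 partner lists in Old ND against Young ND (left) and Old CR against Old ND (right). Each point is 1 gene and red marks adjusted p under 0.05. Papss2 at -1.13, Chpf at -1.08 and Col5a2 at -1.06 lie farther from 0 than Podn at -0.66.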

How the data were processed

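The authors deposited 1 log2 level for each probe set and array, and the submitters' processing notes name RMA and affy without versions. Any other step is not given in the sources used here. Of 45141 probe sets, 28898 name 1 gene in the platform annotation, 551 name several and 15692 none; 28689 were matched to RefSeq (GRCm38.p6) for current symbols. This left 17097 genes, each represented by its brightest probe set (by mean level on 20 arrays), and dim genes were kept.

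Groups came from the labels. The 20 arrays were fitted with lmFit and eBayes of limma 3.58.1 (R 4.3.3), with group means as the only terms (16 residual and 4.19 prior degrees of freedom), and p was adjusted by Benjamini-Hochberg in each of 6 comparisons. Arrays give no read depth, and 5 mice per group limit the precision. The 9 genes, 7 partner lists and 11 cell type lists were chosen with earlier results of these data known, so nothing here is independent support. Named genes are all 9 and, per list, up to 4 called genes, taken in order of adjusted p, or up to 2 genes by p where none was called. Simulated data for Old CR against Old ND on 17097 genes gave calls for 73.1% of 67 genes changed by 0.5, 97.0% of 67 changed by 1 and 6 of 16897 unchanged genes. The changed genes were drawn at random from all genes, whose median residual SD was 0.15. These rates therefore do not describe genes with the larger residual SD of Fmod (1.16), Aspn (0.51), Prelp (0.47) or Omd (0.38). Alternatives were filters, other probe set rules, further normalisation, array weights, the runs, single arrays left out and other thresholds, and tests of differences between runs were chosen after seeing the data.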

Additional observations from a re-analysis of the deposited data

Results flagged for a closer look

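Among 36 sets of 5 arrays (9 genes in 4 groups), 1 held an array far from the rest. Bgn was at 10.81 in Old CR array 5, with the nearest of the other 4 arrays at 11.21, a gap of 0.755 of the group's range. This is the single Old CR array of the second run, and Bgn was lower in that run with the groups held constant (-0.37, limma adjusted p = 6.12e-04). Chance alone gives such a gap in about 1 of 20 sets.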

How the results depend on the processing

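The counts of the 9 genes called stayed at 0 under every alternative in Old CR against Old ND and in Old CR-ND against Old ND, and no alternative turned a called direction round. In Old ND against Young ND the count of 1 became 2 without genes below the median level, with quantile normalisation once more, with run as a block, in the second run alone and at an adjusted p of 0.1. The 2 genes were not the same throughout. With run as a block they were Podn and Bgn. In the second run alone they were Fmod (-1.14) and Aspn (-1.345), and Podn (-0.185) did not pass. It became 0 with array weights, with only the 2 groups compared and at an adjusted p of 0.01, and ran from 0 to 2 with single arrays left out. In Old CR-ND against Old CR the count of 0 became 1 with array weights. In Old CR against Young ND the count of 1 became 2 with quantile normalisation once more and with only the 2 groups compared, 3 with run as a block and in the first run alone, and 0 in the second run alone, where the fit lends the lone Old CR array the spread of the rest. In Old CR-ND against Young ND the count of 1 became 2 with quantile normalisation once more, with run as a block and at an adjusted p of 0.1, and 0 in the second run alone, with only the 2 groups compared and at an adjusted p of 0.01, and ran from 0 to 1 with single arrays left out. For the partner lists, calls in Old ND against Young ND ran over these alternatives from 2 to 5 for linker genes (5 as reported), 2 to 5 for chondroitin and dermatan sulfate enzymes (4), 0 to 2 for keratan sulfate and sulfation genes (1), 3 to 5 for collagens (4), 2 to 5 for proteases (3) and 0 to 3 for receptors and ligands (1), with the 0 in the second run alone. In Old CR against Old ND they ran from 0 to 3 for collagens (1) and for receptors and ligands (1), while chondroitin and dermatan sulfate enzymes reached 2 and proteases 1 (0 each as reported). In Old CR against Young ND they ran from 5 to 8 for collagens (8), 2 to 7 for proteases (5), 0 to 7 for receptors and ligands (6), 1 to 4 for linker genes (3) and 0 to 2 for keratan sulfate and sulfation genes (1), and in Old CR-ND against Young ND from 2 to 6 for collagens (4) and for proteases (5) and 0 to 3 for receptors and ligands (2). All 7 lists stayed at 0 under every alternative in Old CR-ND against Old ND and against Old CR. The second run alone holds 7 arrays, and 2 groups compared alone hold 10, so fewer arrays enter those fits. The cause of the other changes was not tested, except for Dcn under further quantile normalisation. No paired analysis was possible because the replicate numbers were given in accession order and pair no mice across groups. Signal over background is not given for these arrays, which bears on Omd.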
